A study of Mus musculus with 4 samples.

Results

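The stefin A genes of the mouse encode small inhibitors of cysteine proteases and lie side by side on chromosome 16. The members described here are Stfa1, Stfa2, Stfa2l1, Stfa3, BC100530, Gm5483 and BC117090, chosen by gene symbol, which makes 7 of the 53465 genes in the count table. RNA was sequenced from myeloid-derived suppressor cells (MDSCs), a mixed population of immature myeloid cells that expands in cancer. The cells came from spleens of BALB/c mice bearing tumors of 4T1, a mammary carcinoma line, and were isolated by magnetic sorting for Gr-1, which is carried by the surface proteins Ly-6G and Ly-6C. They were cultured for 6 h in control medium (2 libraries) or with 5 μg/mL of the green tea polyphenol EGCG (2 libraries), so that both groups shared strain, tumor, sort and time. The mice were male and were given the 4T1 cells under the skin at 6 weeks of age. Spleens were taken on day 21 by the labels, whereas the methods of the study give 2 weeks. The sources used here do not say whether replicate libraries stand for separate mice, pools or culture wells, and p values then measure only the spread between these libraries. The comparison asks which of these genes differed in level after EGCG.

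Stefins belong to the cystatin superfamily. They lack a signal peptide, act in the cytosol, and block papain-like cysteine proteases such as cathepsins B, L and S by inserting a wedge into the active-site cleft. The middle of this wedge is a hairpin loop with the pattern glutamine, any residue, valine, any residue, glycine. Humans carry a single stefin A gene, CSTA, whereas the mouse cluster has been duplicated, and several of its copies are known as abundant transcripts of neutrophils and their precursors.

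The members spanned 298.6 kb at chr16:36156811-36455392 (GRCm38), with positions from GENCODE M21. Stfa2l1 (chr16:36156811-36161953), Gm5483 (chr16:36184212-36188111) and Stfa1 (chr16:36276951-36285373) were on the plus strand. BC117090 (chr16:36321665-36334332), BC100530 (chr16:36359382-36367748), Stfa2 (chr16:36403992-36408457) and Stfa3 (chr16:36450537-36455392) were on the minus strand. The annotation thus held 3 members in one orientation followed by 4 in the other. Each member had 3 exons in its longest coding transcript. Coding sequences ran to 103 codons in Stfa2, Stfa2l1 and Stfa3, to 97 in Stfa1, BC100530 and Gm5483 and to 96 in BC117090.

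The inhibitory loop pattern was found in all 7 coding sequences, in exon 2 of each. Its 15 coding bases took 4 forms among the members, and they are shown because the loop is the middle of the wedge. Stfa2 and Stfa2l1 had the same loop bases, as did BC100530 and BC117090, and as did Stfa1 and Gm5483, whereas Stfa3 stood alone in its bases. The Stfa3 loop differed from that of Stfa1 and Gm5483 only in the codon of the pattern's valine, GTT in place of GTC. The residues encoded by these loops are therefore the same. For 1 member of each form, 60 coding bases around the loop are given 5′ to 3′ from GENCODE M21, with the loop in capitals. The bases lie in exons 2 and 3, with an intron between them in the genome. The positions are chr16:36159994-36161752 on the plus strand for Stfa2l1, chr16:36186412-36187919 on the plus strand for Gm5483, chr16:36359580-36364265 on the minus strand for BC100530 and chr16:36450729-36452204 on the minus strand for Stfa3.
Stfa2l1: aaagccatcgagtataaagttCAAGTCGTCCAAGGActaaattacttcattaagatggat
Gm5483: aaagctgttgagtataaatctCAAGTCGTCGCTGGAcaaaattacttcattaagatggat
BC100530: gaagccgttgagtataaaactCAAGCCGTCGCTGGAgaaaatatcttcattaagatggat
Stfa3: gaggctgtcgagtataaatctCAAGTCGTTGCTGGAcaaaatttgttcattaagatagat

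Over whole coding sequences, identity between members ran from 73.1% to 97.9% across 21 pairs, with a median of 79.3%. Stfa1 and BC100530 were the closest pair (97.9%), followed by Stfa2 and Stfa2l1 (96.4%), BC100530 and BC117090 (95.2%) and Stfa1 and BC117090 (93.5%). The loop forms do not follow these relations throughout, since Stfa1 shares its loop bases with Gm5483, at 80.4% identity, and not with BC100530 or BC117090. Stfa3 had no member closer than 81.6%. Near-identical copies can trade or lose reads in counting. The read length and the treatment of reads with several matches are not given in the sources used here. Of the 31-base words in the transcripts of BC100530, 66.9% also occurred in transcripts of other genes. This share was 50.7% for BC117090, 50.4% for Stfa1, 47.9% for Gm5483, 41.6% for Stfa2l1, 33.3% for Stfa2 and 0% for Stfa3. For words of 100 bases the share was 22.3% in BC100530, 13.5% in BC117090, 11.1% in Gm5483, 5.60% in Stfa1 and 0% in the other 3 members. Words were matched on both strands. For BC100530 the sharing genes include Gm15845, which overlaps it on the other strand, at both word lengths. The part of this overlap in the shares of BC100530 was not separated from that of near-identical copies. The counts of all members but Stfa3 are therefore uncertain to an extent that was not tested. The annotation used is built on C57BL/6J sequence, while the cells were BALB/c, and an effect of strain differences in these copies was not tested.

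**Figure D1:**
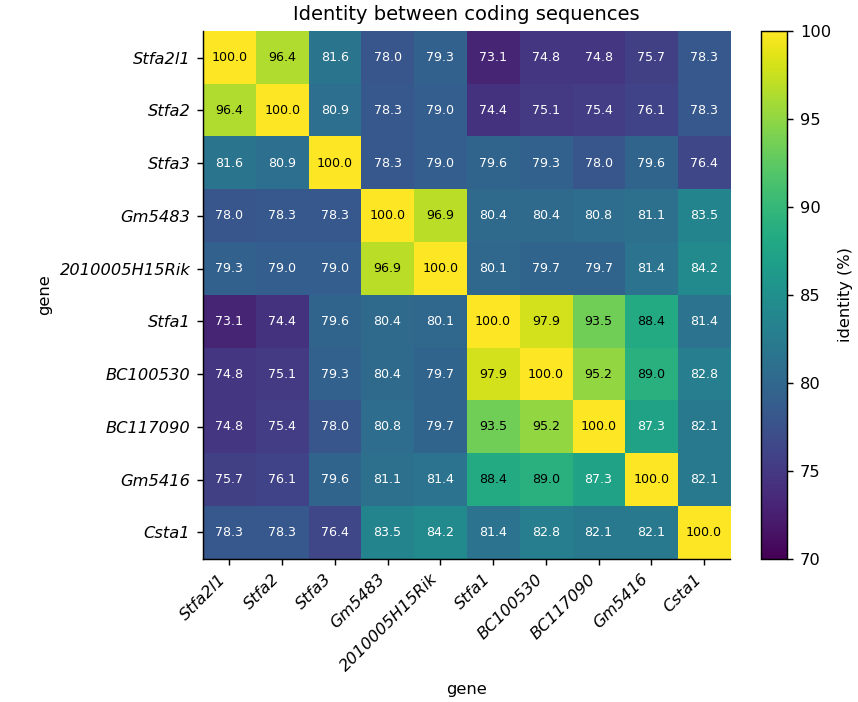
Percent identity between the coding sequences of the 7 members and of Gm5416, 2010005H15Rik and Csta1, which are relatives in or beside the cluster (both axes list genes, and color and printed values give identity). Blocks of high identity join Stfa2l1 with Stfa2, Gm5483 with 2010005H15Rik, and Stfa1 with BC100530 and BC117090.

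The sequence before the RefSeq start site was matched for 6 of the 7 members (BC100530 as Cstdc5 and Gm5483 as Cstdc4), and none was matched for BC117090. Identity of these 100 bases had a median of 75.7% over 15 pairs and reached 83.5%. The letters TTTAAA occurred in 6 of 6 windows, against 4.39% of the 32851 promoter windows of the same length, with both strands searched. They began 29 to 33 bases before the start site in 5 members and 9 bases before it in BC100530. The letters GAGGAGG also occurred in 6 of 6 windows, against 7.08% of all windows. Both were chosen after these sequences had been seen, so the counts are a description. The windows of Stfa1, Stfa2 and BC100530 overlap the genes as GENCODE draws them, with starts further upstream. The other 3 are printed 5′ to 3′ (RefSeq, GRCm38.p6) with TTTAAA in capitals, to show what they share. They are chr16:36156711-36156810 on the plus strand for Stfa2l1, chr16:36184112-36184211 on the plus strand for Gm5483 and chr16:36455393-36455492 on the minus strand for Stfa3.
Stfa2l1: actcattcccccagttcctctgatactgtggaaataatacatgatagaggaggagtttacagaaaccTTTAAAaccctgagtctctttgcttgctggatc
Gm5483: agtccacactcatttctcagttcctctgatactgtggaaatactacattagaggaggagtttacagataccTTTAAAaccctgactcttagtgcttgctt
Stfa3: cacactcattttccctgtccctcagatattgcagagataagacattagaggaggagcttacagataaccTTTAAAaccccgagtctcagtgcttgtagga

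Of the other motifs searched on both strands, AGATAA was found in 3 of 6 windows (Stfa1, Stfa3 and BC100530), against 3.59% of all windows. TTGCNNAA was found in 1 window (BC100530), against 3.43%. TATAAA (5.56% of all windows), TTCNNNGAA (2.55%), GAGGAAG (4.72%) and TGANTCA (2.73%) were in 0 of the 6 windows. No searched letters other than TTTAAA and GAGGAGG were shared by all 6.

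Between 17767318 and 18390385 reads were counted on genes per library. Counts were scaled to a common library size as CPM with TMM factors, and 14682 genes, all 7 members among them, had enough reads to be tested. The EGCG and control groups were compared in edgeR (quasi-likelihood test, p values adjusted over these genes by the Benjamini-Hochberg method), and 20 genes were called lower and 2 higher at an adjusted p under 0.05 (0.150% of the tested genes). The label of the cells was checked on markers. All 8 neutrophil identity markers (among them Ly6g, S100a8, S100a9, Retnlg and Csf3r) were tested, and together they took 48174 and 58731 CPM in the control libraries and 67484 and 57887 CPM with EGCG. None of these 8 was at 0, and markers of other spleen cells, given further on, were also present.

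Per kilobase of the longest coding transcript, 6 of the 7 members lay within a narrow range and Stfa1 lay far below. Stfa2l1 was at 1699 ± 222 CPM per kb (SD over the 4 libraries) and Gm5483 at 1624 ± 255 CPM per kb. Stfa2 was at 1401 ± 205, BC100530 at 1314 ± 268 and BC117090 at 1177 ± 199 CPM per kb. Neighbors in this order differed by less than the spread of either over libraries, except Gm5483 and Stfa2, whose difference was below the spread of Gm5483 and above that of Stfa2. This spread holds group and library differences that the members share, so it does not measure whether neighbors differ within a library. In every library Gm5483 was above Stfa2, and BC100530 above BC117090. Stfa2l1 and Gm5483 changed places in EGCG replicate 2, as did Stfa2 and BC100530. Stfa3 followed at 804 ± 152 CPM per kb, separated from BC117090 by more than either spread. Stfa1 was at 11.8 ± 1.80 CPM per kb, and the level of Stfa2l1 was 144 times higher. A part of shared sequence in the low level of Stfa1 was not tested. The place of Gm5483 depends on the transcript used, since a long transcript with a retained intron brings its merged exons to 1862 bases and its level to 361 CPM per kb. On merged exons BC100530 was at 1029 CPM per kb, below BC117090 at 1177, so the order of these neighbors also depends on the length used.

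**Figure D2:**
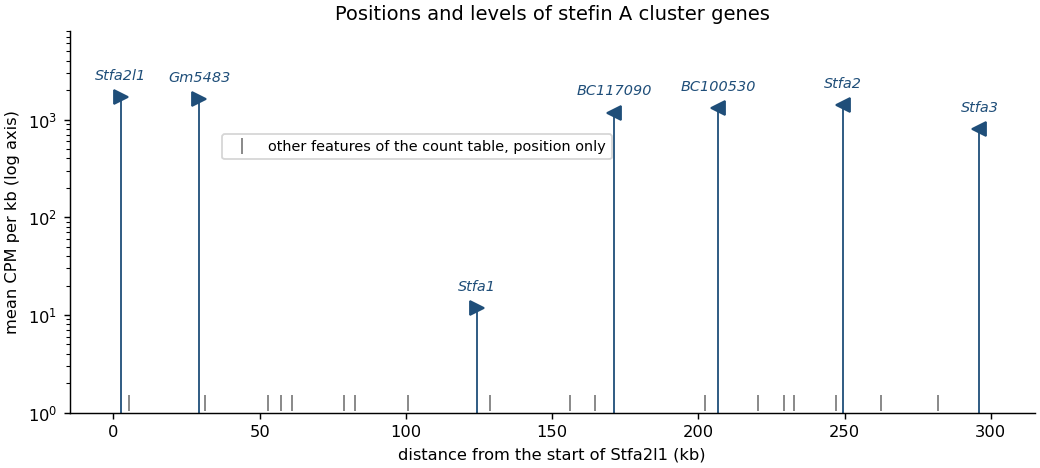
Mean CPM per kb of longest coding transcript over the 4 libraries (log axis) against distance from the start of Stfa2l1 in kb, with triangles pointing along the strand of each member and grey ticks at the other features of the count table. Stfa1, at 11.8 CPM per kb, stands in the middle of the cluster between members at 804 to 1699 CPM per kb.

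With EGCG, all 7 members had a log2 fold change above 0, from 0.14 (Stfa2l1) to 0.41 (BC100530), with a median of 0.30. Over all tested genes, 50.6% were above 0 and the median was 0.0031. None passed the test: 0 of 7 members were called, with adjusted p values from 0.171 to 0.779. At an unadjusted p under 0.05 there were 4 members (BC100530, BC117090, Stfa3 and Gm5483), and 12.2% of all tested genes passed that mark. The same 4 had both EGCG libraries above both control libraries, a pattern found in 21.5% of all tested genes. In bulk RNA, a change in the number of cells that express these genes and a change in RNA per cell cannot be told apart.

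**Figure D3:**
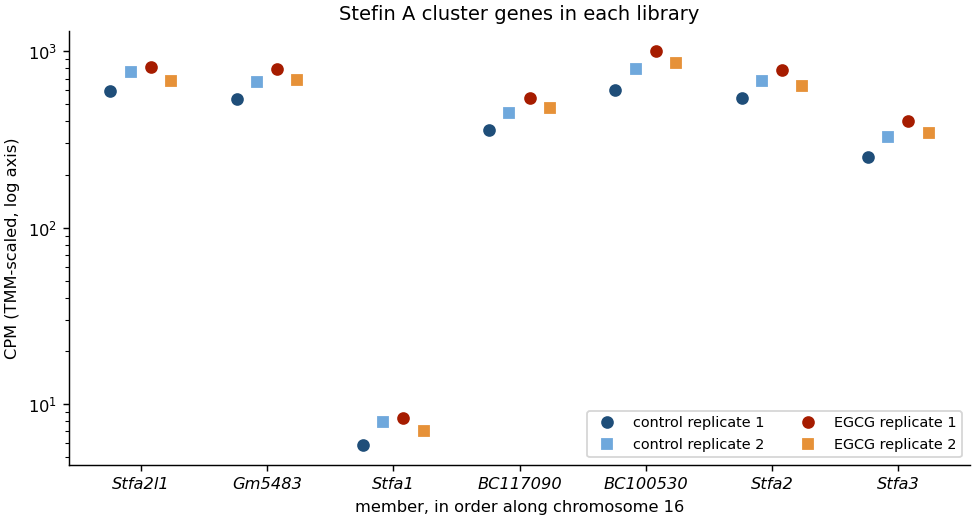
CPM of each member in each library (log axis, 1 point per library, members in chromosomal order). In all 7 members control replicate 1 is the lowest point and EGCG replicate 1 the highest.

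BC100530 is a stefin A-like gene, listed by RefSeq as a cystatin domain gene. It was at 603 and 792 CPM in the control libraries and at 1003 and 855 CPM with EGCG. Both EGCG libraries lay above both controls, and control replicate 2 and EGCG replicate 2 were the nearest libraries of the groups. Its log2 fold change was 0.41 (SE 0.11, 95% interval 0.17 to 0.66), with an unadjusted p of 0.00267 and an adjusted p of 0.171 by edgeR's quasi-likelihood test. The interval corresponds to a fold of 1.12 to 1.58.

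BC117090, its neighbor with the same loop bases, was at 357 and 446 CPM in the control libraries and at 542 and 477 CPM with EGCG. The groups did not overlap, and the gap between control replicate 2 and EGCG replicate 2 was smaller than the gap between replicates within either group. The log2 fold change was 0.34 (SE 0.10, 95% interval 0.13 to 0.56, adjusted p of 0.212 by edgeR's quasi-likelihood test).

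Stfa3, the member with no 31-base word in other genes' transcripts, was at 250 and 328 CPM in the control libraries and at 402 and 344 CPM with EGCG. Again the groups did not overlap. Its log2 fold change of 0.37 (SE 0.11, 95% interval 0.13 to 0.61, adjusted p of 0.221 by edgeR's quasi-likelihood test) is thus the one least exposed to shared sequence.

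Gm5483 was at 537 and 668 CPM in the control libraries and at 794 and 690 CPM with EGCG. Its groups did not overlap, with control replicate 2 close below EGCG replicate 2. The log2 fold change was 0.30 (SE 0.10, 95% interval 0.08 to 0.52, adjusted p of 0.263 by edgeR's quasi-likelihood test).

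The other 3 members had overlapping groups. Stfa2, one of the classical stefin A genes, was at 546 and 678 CPM in the control libraries and at 779 and 635 CPM with EGCG. Its log2 fold change was 0.21 (SE 0.11, 95% interval -0.03 to 0.44, adjusted p of 0.472). Stfa2 lay lower in EGCG replicate 2 than in control replicate 2. Stfa2l1, its near-identical copy at the other end of the cluster, was at 597 and 758 CPM in the control libraries and at 811 and 682 CPM with EGCG. Its log2 fold change was 0.14 (SE 0.11, 95% interval -0.09 to 0.37, adjusted p of 0.655). Stfa2l1 showed the same order of libraries as Stfa2.

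Stfa1 was counted at 107 and 141 reads in the control libraries and at 152 and 125 reads with EGCG, or 5.86, 7.89, 8.38 and 7.0 CPM. Its log2 fold change was 0.16 (SE 0.19, 95% interval -0.24 to 0.56, adjusted p of 0.779). The interval is the widest of the members, and counting error alone amounts to 9.67% of the level of Stfa1 in its shallowest library. For the other 6 members counting error was at most 1.48%, whereas their control libraries differed with a coefficient of variation of 15.2% to 19.1% and their EGCG libraries with 9.08% to 14.4%.

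The libraries had one order in common. All 7 members were lowest in control replicate 1 and highest in EGCG replicate 1, a pattern of 10.96% of all tested genes, and in 4 of 7 EGCG replicate 2 was above control replicate 2. Calls therefore depended on which library was used. Without control replicate 2, 5 members (BC100530, Stfa3, BC117090, Gm5483 and Stfa2) were called higher, with log2 fold changes of 0.63, 0.58, 0.52, 0.47 and 0.38, and 2.31% of the genes tested in that fit were called. Without EGCG replicate 2 the same 5 were called, at 0.53, 0.48, 0.43, 0.40 and 0.35, against 1.64% of the genes. Without control replicate 1, 0 members were called, BC100530 was at 0.24, and Stfa1 and Stfa2l1 were below 0, at -0.032 and -0.016. Without EGCG replicate 1, 0 members were called and the log2 fold changes ran from 0.01 to 0.30. In these fits the lone library of a group is assumed to vary like the other group.

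**Figure D4:**
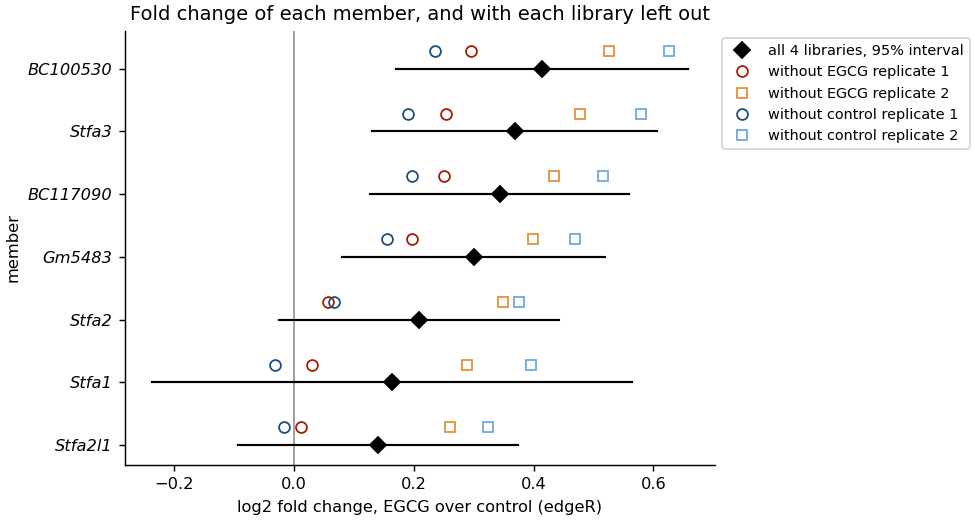
Log2 fold change of EGCG over control for each member (diamonds, with 95% intervals as lines), and the same with each library left out in turn (open symbols). Leaving out control replicate 2 or EGCG replicate 2 moves every member up, and leaving out control replicate 1 or EGCG replicate 1 moves every member down.

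The longest coding transcripts of the members are short, of 387 to 619 bases. A correction in each library for exonic length, which counts the merged exons of all transcripts of a gene, lowered the log2 fold changes of the members to 0.02 to 0.32. BC100530 was then at 0.32, Stfa3 at 0.25, Gm5483 at 0.24, BC117090 at 0.22, Stfa2 at 0.09, Stfa1 at 0.06 and Stfa2l1 at 0.02. Merged exons came to 1862 bases in Gm5483, 790 in BC100530 and 710 in Stfa1, so that Gm5483 was not corrected as a short gene, and it passed BC117090 in the order. BC100530 and Stfa3 led with and without the correction, all 7 were above 0, and 0 were called.

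The sum over the members is not affected by reads traded among them. It was 2897 and 3678 CPM in the control libraries and 4340 and 3690 CPM with EGCG, or 0.298%, 0.366%, 0.428% and 0.364% of all counted reads. The mean was 3287 ± 552 CPM (SD, n = 2) in the control group and 4015 ± 460 CPM (SD, n = 2) in the EGCG group. EGCG replicate 2 and control replicate 2 were almost level. The log2 ratio of the means was 0.29, and the SD between replicates on the log2 scale was 0.21. With 1 library left out this ratio ran from 0.13 (without control replicate 1) to 0.47 (without control replicate 2). With the length correction it was 0.19. No test was run on the sum.

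Within the cluster, the shares of 6 of the 7 members did not overlap between the groups, 1 of them (Stfa1) by less than its counting error. For comparison, 46.4% of 14679 tested genes did not overlap when their reads were divided by the summed reads of the members in the same way. That background took every tested gene with reads in each library, whatever its depth. The members other than Stfa1 had at least 4572 reads in each library, and no background of like depth was taken. Shares of a whole depend on each other. The difference was large beside the gap between replicates mainly for BC100530 and Stfa2l1. Shares within a library do not depend on how libraries are scaled. BC100530 took 20.8% and 21.5% of the reads of the 7 members in the control libraries and 23.12% and 23.16% with EGCG. Stfa2l1 took 20.62% and 20.60% in the control libraries and 18.69% and 18.47% with EGCG. The first share was higher in both EGCG libraries and the second lower in both.

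Stfa3 took 8.64% and 8.92% of the cluster's reads in the control libraries and 9.27% and 9.34% with EGCG. For BC117090 the shares were 12.3% and 12.1% against 12.5% and 12.9%. Stfa2 had 18.9% and 18.4% in the control libraries and 17.95% and 17.2% with EGCG. For BC117090 the EGCG libraries differed from each other by 0.429 percentage points, close to the difference of 0.479 between the groups, and for Stfa2 by 0.729 against 1.06. Stfa3 and BC117090 had higher shares in both EGCG libraries, as BC100530 did, and Stfa2 had lower shares, as its near copy Stfa2l1 did. Stfa1 had 0.202% and 0.215% against 0.193% and 0.190%, a difference within the counting error of its share (1 SE of 0.0157 to 0.0195 percentage points). Gm5483 overlapped, with 18.5% and 18.2% against 18.3% and 18.7%. For the other members the counting error of a share was at most 0.177 percentage points (1 SE). With 2 libraries against 2, an exact permutation test cannot give a two-sided p under 0.333, so these shares were not tested, and they were described after the values were seen.

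**Figure D5:**
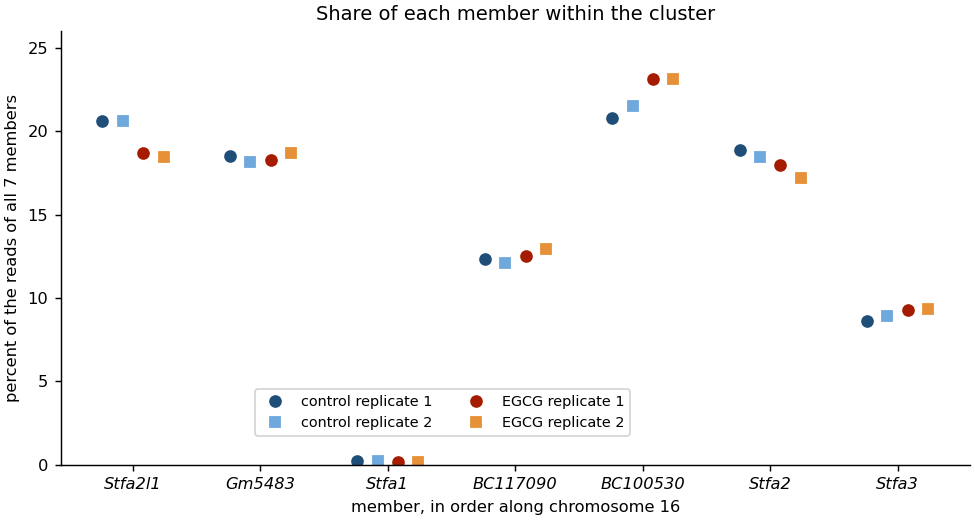
Percent of the reads of all 7 members taken by each member in each library (1 point per library, axis from 0). BC100530 is at 20.8% and 21.5% in the control libraries and 23.12% and 23.16% with EGCG, and Stfa2l1 at 20.62% and 20.60% against 18.69% and 18.47%.

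Pairwise ratios of reads restate the counts behind these shares, so they add no separate evidence. Of the 21 pairs, 18 had both EGCG libraries on one side of both control libraries, and 14 of 15 did without Stfa1. Over all 42998901 pairs of the 9274 genes with at least 100 reads in every library, 45.2% did. These ratios share members and are not independent. The pair with the largest difference was Stfa2l1 over BC100530, at 0.990 and 0.957 in the control libraries and 0.808 and 0.797 with EGCG. Stfa2l1 over Stfa3 was at 2.39 and 2.31 against 2.02 and 1.98. BC100530 over Stfa3 lay within a narrow range, at 2.41 and 2.41 against 2.49 and 2.48. Stfa2 and Stfa2l1, with lower shares, have 103 codons and 96.4% identity, while Stfa3, with higher shares, has the same number of codons.

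Few reads fell on the features between the members. The table listed 18 of them, of which 12 were small nuclear RNA genes with at most 28 reads in any library, and 3 were tested (Gm5416, Gm25465 and Gm15845). An snRNA gene on the opposite strand lay 59 to 106 bases past the end of 6 members, the exception being Stfa3, whose nearest lay 11790 bases away. Gm5416, a stefin A-like gene between Gm5483 and Stfa1, was at 5.53 and 6.77 CPM in the control libraries and at 7.83 and 7.89 CPM with EGCG. Its log2 fold change was 0.35 (SE 0.17, adjusted p of 0.434 by edgeR's quasi-likelihood test), and its groups did not overlap. Its transcript shares 3.41% of its 31-base words with other genes. 2010005H15Rik, 96.9% identical to Gm5483, had only 9, 5, 11 and 6 reads. Gm15845 overlaps BC100530 on the other strand and was at 20, 37, 43 and 11 reads, and since the counting ignored strand, reads in the overlap cannot be assigned to either. Beyond the ends, Csta1 had 0 to 3 reads per library and Casr 0 or 1. Cd86, the costimulatory ligand further along, had a log2 fold change of -0.04 (SE 0.08, adjusted p of 0.903).

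Genes were ranked by how closely their log2 CPM profile over the 4 libraries, centred on its mean, followed that of BC100530, among 9273 genes with at least 100 reads in every library. The nearest was Stfa3 (root mean square distance 0.023 on the log2 scale). S100a8, which encodes a calcium-binding subunit of calprotectin, was second (0.031), followed by mt-Rnr2, Rpl10-ps3 and Rpl22l1. BC117090 ranked 8, Gm5483 16, Stfa2 106, Stfa1 162 and Stfa2l1 255. With 4 libraries these distances are a description.

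S100a8 was at 14461 and 18163 CPM in the control libraries and at 22838 and 19477 CPM with EGCG, with a log2 fold change of 0.38 (SE 0.12, adjusted p of 0.228 by edgeR's quasi-likelihood test). For every 1000 reads of S100a8 there were 41.7, 43.6, 43.9 and 43.9 reads of BC100530 (control replicates 1 and 2, then EGCG replicates 1 and 2). Stfa3 gave 17.3, 18.1, 17.6 and 17.7 reads on this scale, in which the control and EGCG libraries overlapped. Stfa2l1 gave 41.3, 41.7, 35.5 and 35.0 reads, and Stfa2 gave 37.8, 37.3, 34.1 and 32.6. S100a8 was itself higher in both EGCG libraries, and 63.9% of 14679 tested genes were lower on this scale in both. Among the members this held for 5 of 7 (Stfa2l1, Stfa2, Gm5483, BC117090 and Stfa1), near that background, with control replicate 2 and EGCG replicate 2 almost level for BC117090 (24.6 and 24.5 reads). The sum of the members was 200.3 and 202.5 reads per 1000 reads of S100a8 in the control libraries and 190.04 and 189.5 with EGCG.

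Other protease inhibitors, cysteine proteases and other proteases were described by lists, in which 0 genes were called. Of 16 other cystatins, 3 were tested: secreted cystatin C (Cst3) had a log2 fold change of 0.09 (SE 0.08), the stefin B gene Cstb 0.01 (SE 0.08) and Cst7 -0.09 (SE 0.16), and 0 had an unadjusted p under 0.05. Per kilobase of merged exons, the length used for all genes of these lists, Cst3 was at 409 and Cstb at 395 CPM per kb, which is not the scale of the values given for the members on their longest coding transcripts. Of 11 tested cysteine cathepsins and legumain, 3 were higher and 8 lower with EGCG, with a median log2 fold change of -0.06, and 0 had an unadjusted p under 0.05. The highest on that scale were Ctsz (-0.03), Ctss (-0.13), Ctsb (-0.06) and Lgmn (-0.07).

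Among 9 aspartic and serine proteases, which stefins are not known to block, 7 were higher and 2 lower (median 0.06), and 1 had an unadjusted p under 0.05. Ctsd, the lysosomal aspartic protease cathepsin D, was at 1482 and 1547 CPM in the control libraries and at 1765 and 1825 CPM with EGCG (log2 fold change 0.25, SE 0.08, adjusted p of 0.230). The next highest per kilobase were Ctse (0.08), Ctsg (0.06) and Prtn3 (0.04). Of 12 serpins and other protease inhibitors, 5 were higher and 7 lower (median -0.06), and 4 had an unadjusted p under 0.05. The short whey acidic protein genes Wfdc17 and Wfdc21 were at 0.47 (SE 0.10, adjusted p of 0.0886) and 0.29 (SE 0.11, adjusted p of 0.329), and Serpinb9 and Serpina3g, the other 2 of these 4, were at -0.52 (SE 0.14, adjusted p of 0.176) and -0.40 (SE 0.12, adjusted p of 0.210). Slpi was at 0.11 and Serpinb1a at 0.13.

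Marker genes of several cell types also differed between the libraries, with 0 called. For each list the median log2 fold change is given, with the values of its most abundant genes. Of the 8 neutrophil identity genes 6 were higher (median 0.09, with S100a9 at 0.21), of 6 primary granule genes 5 (0.05, with Mpo at -0.13), of 8 genes of the secondary granule list 6 (0.04, with Ngp at 0.13 and Ltf at -0.07) and of 12 of the tertiary granule and late list 8 (0.06, with Retnlg at 0.13 and Csf3r at 0.01). The secondary granule list also holds Ltbr, a lymphotoxin receptor, and the late list Slc40a1, the iron exporter ferroportin, and neither is an established marker of these stages. Without them 5 of 7 (median 0.015) and 7 of 11 (median 0.02) were higher. Of 9 monocyte genes 7 were lower (median -0.13, with Csf1r at -0.14 and Ctss at -0.13), and their sum was 1983 and 1725 CPM in the control libraries against 1533 and 1653 with EGCG. Of 10 macrophage genes 9 were lower (-0.29, Adgre1 at -0.27 and Vcam1 at -0.23), with sums of 398 and 393 CPM against 309 and 329. All 5 tested endothelial genes were lower (-0.75, Pecam1 at -0.26 and Plvap at -0.65), with sums of 122 and 135 CPM against 99.8 and 104. Of 9 eosinophil and basophil genes 7 were lower (-0.12, Prg2 at -0.26 and Epx at -0.31). The same held for 5 of 8 dendritic cell genes (-0.13, Bst2 at -0.20 and Zbtb46 at -0.18) and 7 of 7 platelet genes (-0.19, Itgb3 at -0.19 and Itga2b at -0.28). Of 8 B cell genes 6 were higher (0.12, Ighm at 0.15 and Jchain at 0.24), as were 6 of 9 T and NK cell genes (0.14, Cd3d at 0.14 and Nkg7 at -0.05) and 5 of 7 erythroid genes (0.11, Hbb-bs at 0.22 and Hba-a1 at 0.11). An unadjusted p under 0.05 was found for 5 endothelial, 4 macrophage, 3 monocyte, 3 eosinophil and basophil (Fcer1a, at 0.37, as well as Prg2 and Epx), 2 platelet, 2 B cell, 2 erythroid (Slc4a1, at -0.56, as well as Hbb-bs), 1 dendritic cell and 0 T and NK cell genes, for 1 neutrophil identity gene (S100a8), for 3 genes of the tertiary granule and late list (G0s2 at 0.27, Slc40a1 at 0.20 and Trem3 at 0.19) and for 2 tumor epithelial genes. The part of these markers in the levels of the members was not tested. Epidermal keratinocytes are also known to express stefin A. Of their markers, 3 of 7 were at 0 in every library, and all of them together reached 0.783 to 1.16 CPM (Krt10, the single tested gene, at 0.75 with SE 0.49). Tumor epithelial markers summed to 24.05 to 27.9 CPM, with 2 of 4 tested genes higher (Cdh1 at -0.26 and Epcam at 0.63). Most of this sum was Cdh1, at 16.2 to 22.0 CPM over the libraries. Krt19 was at 0 reads in every library and Krt8 at 0 to 2 reads.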

How the data were processed

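Reads were aligned by the authors with STAR 2.6.0c to the GRCm38 genome, counted per gene with featureCounts 1.6.2 (Ensembl annotation, strand ignored), and deposited by the authors as raw counts (versions from the submitters' processing notes). The table held 4 sample columns and 0 columns of other samples.

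From the counts, genes were filtered with filterByExpr (minimum count of 10), scaled by TMM and tested in edgeR 4.0.16 under R 4.3.3 (legacy quasi-likelihood fit, group as the only term), with Benjamini-Hochberg adjustment over 14682 genes and a threshold of 0.05. Standard errors were obtained as the absolute log2 fold change over the root of its F statistic. GENCODE M21 gave positions for 53360 of 53465 identifiers. Lists and shares are described without a test. The alternatives were other scalings, filters and fits, DESeq2 1.42.0, a loess correction for exonic length (span of 0.4), a replicate block, and leaving out each library. The members and gene lists were chosen with earlier results of these data known, and the sequence motifs after the sequences were seen. Named genes are the members, the features in and beside the cluster, the 4 highest genes per kilobase of each protease or inhibitor list, the 2 highest of each cell type list (once where lists share a gene), and the 5 nearest profiles. Serpinb9, Serpina3g, G0s2, Slc40a1, Trem3, Ltbr, Fcer1a, Slc4a1, Krt8 and Krt19 were named after their values were seen. The sequencing reads were not used here.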

Additional observations from a re-analysis of the deposited data

How the results depend on the processing

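With all 4 libraries, 0 members were called under any of the 10 alternatives of scaling, filter, fit, tool, length or block, all 7 stayed above 0, and their smallest adjusted p ran from 0.0627 (library size only) to 0.678 (no filter). Unadjusted p values were under 0.05 for 4 members in each of these fits except DESeq2, with 2. The counts over all genes (20 lower, 2 higher) were 135 lower and 16 higher with library size only, 9 lower with upper-quartile scaling, 0 lower and 0 higher without a filter (1795 genes at an unadjusted p under 0.05), 9 lower and 1 higher with a minimum count of 50, 49 lower and 14 higher with the robust fit, 6 higher with the newer quasi-likelihood fit, 6 lower with the length correction, and 51 lower and 16 higher with DESeq2. The same-numbered libraries did not deviate together (correlation of 0.034), and with the replicate block 24 genes were lower, 6 higher and 0 members called, with BC100530 at 0.42. The cause of these shifts was not tested.

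With 1 library left out, 72 to 235 genes were called lower, 5 to 119 higher and 0 to 5 members. The log2 fold changes then ran from -0.032 to 0.39 for Stfa1 and from -0.016 to 0.32 for Stfa2l1, both below 0 only without control replicate 1, and from 0.057 to 0.38 for Stfa2, 0.19 to 0.58 for Stfa3, 0.24 to 0.63 for BC100530, 0.15 to 0.47 for Gm5483 and 0.20 to 0.52 for BC117090. The log2 ratio of the sum ran from 0.13 to 0.47, and from 0.19 to 0.30 under the other alternatives. Counting error was 9.67% of the level for Stfa1 and at most 1.48% for the other members. The part of shared sequence in the counts was not tested.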
